A study of Homo sapiens with 18 samples.

Results

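Aminoacyl-tRNA synthetases, the enzymes that load each tRNA with its amino acid, were followed in DU145 cells given GC7 or vehicle. The list held 35 synthetase genes, 19 for the cytosol and 16 for mitochondria, chosen by gene symbol. Of these, 33 (18 cytosolic and 15 mitochondrial) had a row under their own name in both deposited tables, of which the one for the fractions lists 15747 genes. MARS1 and MARS2, the cytosolic and mitochondrial methionyl enzymes, had no row under these names and are not counted below. DU145 is an established line from a metastatic prostate carcinoma. The 6 groups were GC7 and vehicle (Ctl) cells in heavy polysomal, cytoplasmic and whole-cell RNA, with 3 libraries each and 18 in all. GC7 (N1-guanyl-1,7-diaminoheptane) was given at 40 µM for 24 h, and vehicle alone to the controls. Emetine, a blocker of elongation, was given to the cells of all 18 samples at 25 µg/ml for 10 min before harvest, per the labels' protocols. For the fractions, nuclei and mitochondria were pelleted before the gradients.

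GC7 inhibits deoxyhypusine synthase, the enzyme that starts the change of a lysine of the translation factor eIF5A to hypusine. Hypusinated eIF5A helps ribosomes through stretches that are slow to form peptide bonds, runs of proline among them. Most cytosolic synthetases carry names ending in 1 and their nuclear-encoded mitochondrial counterparts names ending in 2, while GARS1 and KARS1 each make both forms. In the cytosol several synthetases sit with the scaffold proteins AIMP1, AIMP2 and EEF1E1 in the multisynthetase complex, and the others are outside it. Uncharged tRNA activates the kinase GCN2 (EIF2AK4), which phosphorylates eIF2 and so favours translation of ATF4, a transcription factor known to induce many cytosolic synthetase genes and few mitochondrial ones.

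ATF4 binds with C/EBP partners to a composite site, of which TTGCATCA is a form. It was looked for on both strands in RefSeq promoter windows (GRCh38.p14), which run from 250 bases before a RefSeq transcript start to 50 bases after it, with more than 1 window for genes with several starts. Windows were matched for 30 of the 35 members, and not for AARS2, LARS1, VARS1, VARS2 and YARS1. The letters were found in 6 of 16 cytosolic members with a window and in 0 of 14 mitochondrial ones, where 1.08% of all 27305 genes with a window held them. The 6 sites are shown because they mark members whose values are given below, with 30 bases each, read 5′ to 3′ on the gene's strand, and the match in capitals. The NARS1 match is on the other strand.
AARS1: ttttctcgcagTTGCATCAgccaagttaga
CARS1: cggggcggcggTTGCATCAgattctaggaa
IARS1: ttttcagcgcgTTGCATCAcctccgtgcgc
MARS1: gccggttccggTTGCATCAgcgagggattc
NARS1: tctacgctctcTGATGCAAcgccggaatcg
TARS1: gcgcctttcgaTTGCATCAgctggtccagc

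These stretches lie at chr16:70289675-70289704 for AARS1, chr11:3057407-3057436 for CARS1, chr9:92293692-92293721 for IARS1, chr12:57488053-57488082 for MARS1, chr18:57621804-57621833 for NARS1 and chr5:33440956-33440985 for TARS1. MARS1 and TARS1 lie on the plus strand and the other 4 on the minus strand. Counted from the RefSeq start of its window (70289506 for AARS1), the match begins 187 bases before it in AARS1, and 13, 4 and 2 bases before it in IARS1, MARS1 and CARS1. The AARS1 match lies inside the gene as GENCODE draws it, from a start further upstream. With the RefSeq start itself counted as the first base, the match begins at base 15 in NARS1 and at base 3 in TARS1. The start used for TARS1, at 33440965, lies downstream of its first RefSeq start at 33440696. With any base allowed at the third position (TTNCATCA), which 4.46% of genes with a window held, GARS1 and the mitochondrial YARS2 were added. A match is a description of letters only, and no binding was measured.

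Both tables hold the authors' comparisons and no values of single libraries, so values per sample, SDs and the depth of a library are unknown here. Replicates are not described as separate cultures, and the spread behind each p-value may be a technical one. Mean normalized counts per gene had a median of 572 in polysomes and 401 in cytoplasm in the authors' deposited table. The epithelial keratins KRT8 and KRT18 stood at 18621 and 26823 in polysomes and at 32028 and 41006 in cytoplasm, in mean normalized counts of the authors' deposited table, and 4 of 4 epithelial markers had a row. KLK3, TP63, KRT5, DCN, LUM and PTPRC had no row there, while COL1A1 had one, at 56.5 in polysomes and 62.5 in cytoplasm in the authors' deposited table. Neither table states its numerator. Every direction below takes the category "UP" of the fraction table to mean higher with GC7, and whole-cell values are printed with their sign reversed to match it; were "UP" to mean higher with vehicle, all directions would be the other way. The whole-cell sign was reversed because the deposited values ran against those of the fractions across 14099 genes (Spearman's rho -0.37 with polysomes and -0.27 with cytoplasm), so a shared direction of whole cells and fractions is not independent evidence. Each value is relative to all RNA of its fraction, so RNA per cell and the number of cells cannot be told apart.

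The comparison of heavy polysomal RNA asked which mRNAs changed among those bound by many ribosomes. Among cytosolic synthetase mRNAs 9 of 18 were higher with GC7, led by the tryptophanyl and seryl enzymes, and 1 mitochondrial enzyme rose while 1 fell. These 9 had a deposited adjusted p under 0.05 and were higher, 0 were lower and the other 9 were not called, where 5.61% of all genes were called higher and 5.48% lower. Of 15 mitochondrial members 1 was higher and 1 was lower. Fold changes of the fractions are given below on the log2 scale as GC7 over vehicle, after removal of the shrinkage in the deposited values, each with its standard error. Median log2 fold changes were 0.57 for cytosolic members, 0.23 for mitochondrial members and -0.01 for all genes. The shrunken values of the authors' deposited table had medians of 0.47 for cytosolic and 0.16 for mitochondrial members.

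WARS1, the tryptophanyl enzyme (chromosome 14, 100333790 to 100376805, GRCh38), which interferon gamma also induces, had the largest polysomal change of the 33, at 1.27 (SE 0.18), or 2.41-fold with a 95% interval of 1.89 to 3.09. Its adjusted p was 4.8e-10 in the authors' deposited table. SARS1, the seryl enzyme (chromosome 1, 109213918 to 109238182), stood at 1.11 (SE 0.15), or 2.16-fold, with an adjusted p of 1.34e-10 in the authors' deposited table. These were the 2 members the authors' deposited table also placed past a log2 fold change of 1, in its category for genes higher in polysomes, where 1.05% of genes passed both conditions. AARS1, the alanyl enzyme (chromosome 16, 70251983 to 70289707), and LARS1, the leucyl enzyme and a leucine sensor for mTORC1 (chromosome 5, 146110566 to 146182696), both stood at 0.89, with SEs of 0.19 and 0.17. Their adjusted p-values in the authors' deposited table were 0.000136 and 7.99e-06.

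NARS1, the asparaginyl enzyme, rose by 0.71 (SE 0.21), IARS1, the isoleucyl enzyme, by 0.66 (SE 0.15) and GARS1, the glycyl enzyme of both compartments, by 0.66 (SE 0.16). CARS1, the cysteinyl enzyme, rose by 0.64 (SE 0.15). Adjusted p-values of these 4 in the authors' deposited table were 0.013, 0.000453, 0.00174 and 0.000421. FARSB, the beta subunit of the cytosolic phenylalanyl enzyme, rose by 0.59 (SE 0.15), with an adjusted p of 0.00225 in the authors' deposited table. FARSA, its alpha subunit, which works in a fixed complex with FARSB, was not called at 0.25 (SE 0.22), with a 95% interval from -0.19 to 0.69. The intervals of the subunits overlap, and the difference between them was not tested.

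The other cytosolic members were not called. EPRS1, which joins the glutamyl and prolyl enzymes in a single protein, was nearest the threshold at 0.56 (SE 0.21), with 0.0634 as its adjusted p in the authors' deposited table. KARS1, the lysyl enzyme of both compartments, stood at 0.31 (SE 0.14), with a 95% interval from 0.04 to 0.58 that leaves 0 out before adjustment. YARS1 for tyrosine, TARS1 for threonine, RARS1 for arginine, QARS1 for glutamine and VARS1 for valine lay between 0.21 and 0.27. HARS1, the histidyl enzyme, stood at -0.00 (SE 0.19), with a 95% interval from -0.39 to 0.38. It was the one cytosolic member of 18 below 0.

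Among mitochondrial members, IARS2, the isoleucyl enzyme, rose by 0.73 (SE 0.19), next to the value of cytosolic IARS1, with an adjusted p of 0.00376 in the authors' deposited table. CARS2, the cysteinyl enzyme, which also makes cysteine persulfide, fell by 0.50 (SE 0.15), with an adjusted p of 0.0136 in the authors' deposited table. The 13 mitochondrial members without a call ran from -0.12 for EARS2, the glutamyl enzyme that also charges mitochondrial glutamine tRNA with glutamate, to 0.48 for LARS2, the leucyl enzyme. Between them, AARS2, NARS2, VARS2, PARS2, RARS2, WARS2, TARS2 and FARS2 lay from 0.20 to 0.36, and HARS2, SARS2 and YARS2 from -0.02 to 0.06. Of the 15, 12 were above 0.

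**Figure D1:**
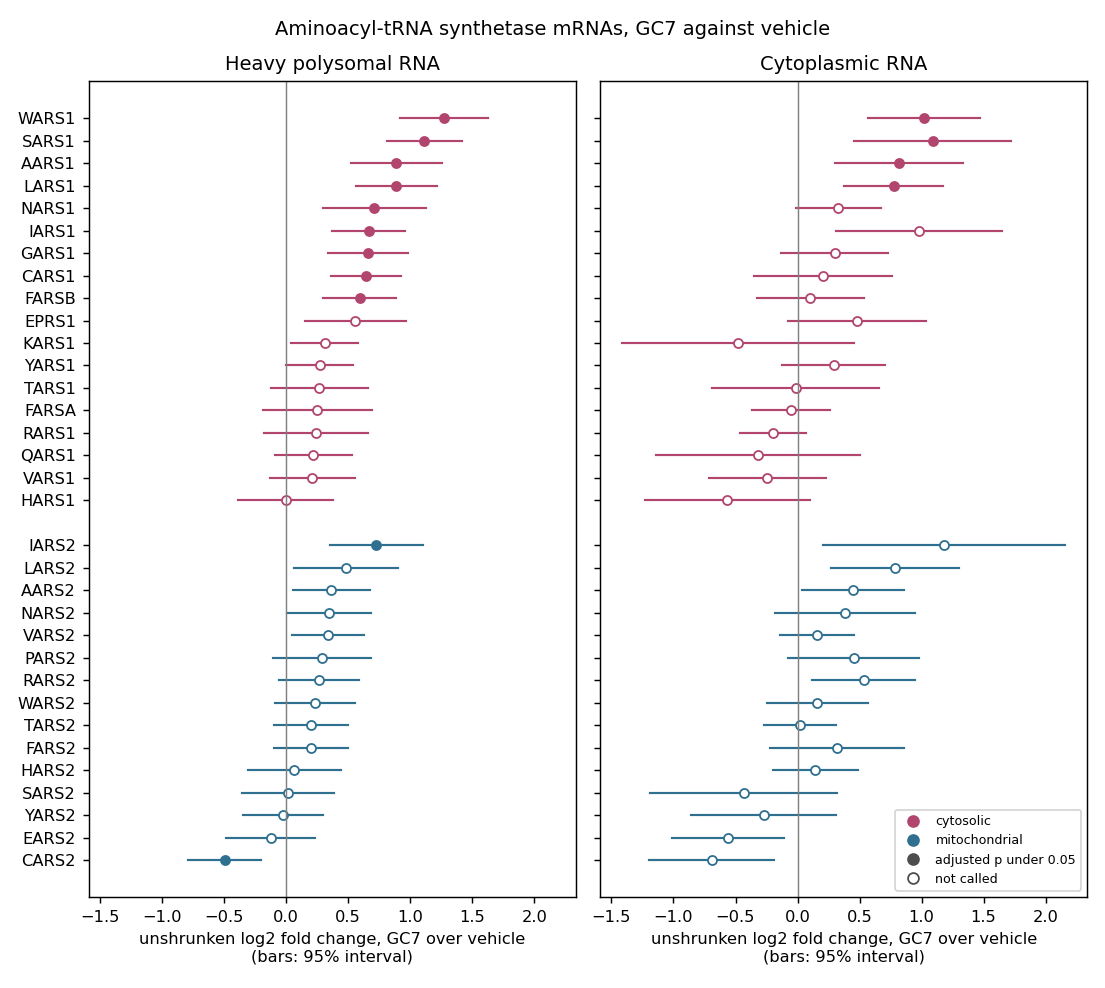
Unshrunken log2 fold change of GC7 over vehicle for 33 synthetase mRNAs in heavy polysomal RNA (left) and cytoplasmic RNA (right), 1 row per gene, with 95% intervals; filled points have a deposited adjusted p under 0.05. In polysomes 9 of 18 cytosolic members are filled and right of 0, against 4 of 18 in cytoplasm.

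In cytoplasmic RNA the same members were asked about in the lysate before the gradient. Here 4 of 18 cytosolic members were higher (2.29% of all genes) and 0 lower (1.95% of all genes), and 0 of 15 mitochondrial members were called. The 4 were WARS1 at 1.02 (SE 0.23), SARS1 at 1.09 (SE 0.32), AARS1 at 0.82 (SE 0.26) and LARS1 at 0.77 (SE 0.20), with adjusted p-values of 0.00107, 0.0254, 0.0448 and 0.00794 in the authors' deposited table. All 4 were also called higher in polysomes, and were the 4 largest there. IARS1 stood at 0.98 (SE 0.34, adjusted p = 0.0778) and mitochondrial LARS2 at 0.79 (SE 0.26, adjusted p = 0.0599), both p-values from the authors' deposited table. IARS2 had the highest value of all 33, 1.18, with the largest SE, 0.50, and a 95% interval from 0.21 to 2.16. Its adjusted p was 0.187 in the authors' deposited table.

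Of the 6 members called higher in polysomes alone, IARS1 and IARS2 had higher values in cytoplasm than in polysomes and the other 4 lower ones. GARS1 stood at 0.30 (SE 0.22), NARS1 at 0.33 (SE 0.17), CARS1 at 0.21 (SE 0.28) and FARSB at 0.10 (SE 0.22). The lowest values were those of CARS2 at -0.69 (SE 0.26), HARS1 at -0.57 (SE 0.34), EARS2 at -0.56 (SE 0.23) and KARS1 at -0.48 (SE 0.48), and the authors' deposited table gave CARS2 an adjusted p of 0.107. Median cytoplasmic log2 fold changes were 0.25 for cytosolic members, 0.16 for mitochondrial members and -0.01 for all genes, and 0.11 for cytosolic and 0.10 for mitochondrial members in the shrunken values of the authors' deposited table. The median SE of the cytosolic members was 0.17 in polysomes and 0.25 in cytoplasm, so a change of one size reached the threshold more readily in polysomes.

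Whether ribosome loading changed beyond the mRNA itself was asked by the polysomal minus the cytoplasmic log2 fold change. By a normal test with Benjamini-Hochberg adjustment, 0 members and 0 (0%) of the 15669 genes tested passed an adjusted p of 0.05. At an unadjusted p under 0.05 there were 335 genes (2.14%) and 0 members. The smallest p among members was 0.0655, for FARSB, at 0.49 with a 95% interval from -0.03 to 1.01. For CARS1 the difference was 0.44 (95% interval -0.19 to 1.06) and for GARS1 0.36 (-0.17 to 0.90). KARS1 had the largest difference of the 33, 0.79, with a 95% interval from -0.18 to 1.76. For WARS1 it was 0.25 (-0.32 to 0.83), for SARS1 0.02 (-0.68 to 0.72), for AARS1 0.07 (-0.56 to 0.70) and for LARS1 0.11 (-0.40 to 0.63). The difference was above 0 in 16 of 18 cytosolic members and in 7 of 15 mitochondrial members, where 51.0% of all genes were above 0. Its median was 0.33 in cytosolic members, -0.04 in mitochondrial members and 0.01 in all genes. The members share their libraries, so these counts are a description. The test took the errors of both fractions as independent. With a correlation of errors of 0.5, 4 members had an unadjusted p under 0.05, and the smallest adjusted p of a member was 0.397. The lack of calls therefore does not show that loading was unchanged.

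**Figure D2:**
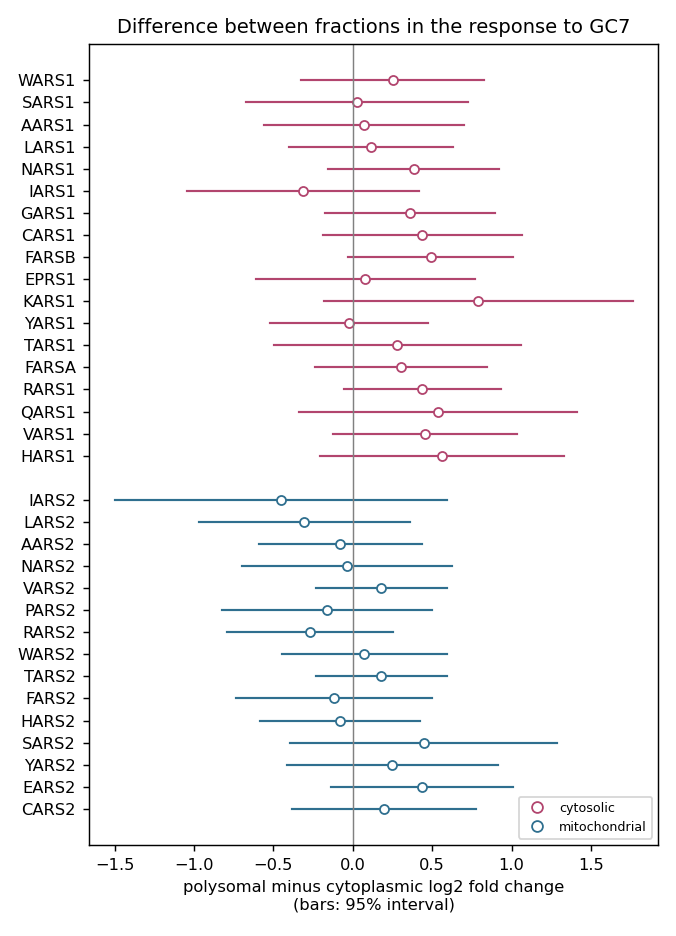
Unshrunken log2 fold change with GC7 in polysomes minus that in cytoplasm, 1 row per gene, with 95% intervals from both standard errors taken as independent. Every interval of the 33 covers 0, and 16 of 18 cytosolic points lie right of 0.

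In whole-cell RNA, 6 of 18 cytosolic members were higher at an unadjusted p under 0.05 and 0 were lower. Of the 26660 genes with reads, 2.78% were higher and 2.23% lower. Read counts are not given for whole cells, so rows at the most common log fold change were taken as genes without reads. No gene passed Benjamini-Hochberg adjustment, which was made over all 44682 genes of this table, those taken as without reads included. The smallest adjusted p was 0.642, so none of the 6 is a call beyond that screen. With the sign reversed, the authors' deposited table gave a log2 fold change of 1.96 for WARS1 (unadjusted p = 0.00193), 1.79 for SARS1 (p = 0.00439) and 1.70 for AARS1 (p = 0.0026). In the authors' deposited table YARS1 stood at 1.55 (unadjusted p = 0.00342), CARS1 at 1.42 (unadjusted p = 0.00321) and GARS1 at 1.12 (unadjusted p = 0.0344). WARS1, SARS1 and AARS1 passed the threshold of all 3 comparisons, of which that of whole cells was unadjusted. Of all genes, 1.79% were called higher in both fractions, and the share that passed all 3 was not counted. YARS1 stood at 0.27 (SE 0.14) in polysomes and 0.29 (SE 0.21) in cytoplasm, and the authors' deposited table gave it an unadjusted p of 0.0468 in polysomes. Its difference from whole cells was not tested. IARS1, at 1.07 (p = 0.276), and LARS1, at 0.95 (p = 0.0696), had large values without a low p in the authors' deposited table.

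None of 15 mitochondrial members had an unadjusted p under 0.05 in whole cells, where the authors' deposited table, sign reversed, ran from -0.48 for CARS2 to 0.65 for PARS2, the prolyl enzyme. IARS2 stood at -0.21 there (p = 0.677 in the authors' deposited table), on the other side of 0 from its polysomal value. Medians were 0.75 for cytosolic members, -0.05 for mitochondrial members and -0.01 for genes with reads. The fraction values were shrunken and then unshrunken and the whole-cell values were not, so sizes are not compared between them. The whole-cell table also held numbered copies of some members, 6 for VARS1, 5 for VARS2 and 1 each for CARS1 and SARS2. Reads may be split among them, which leaves the VARS1 and VARS2 values of 0.15 and 0.35 in the authors' deposited table uncertain. The CARS1 copy stood at 1.52 after the sign was reversed.

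**Figure D3:**
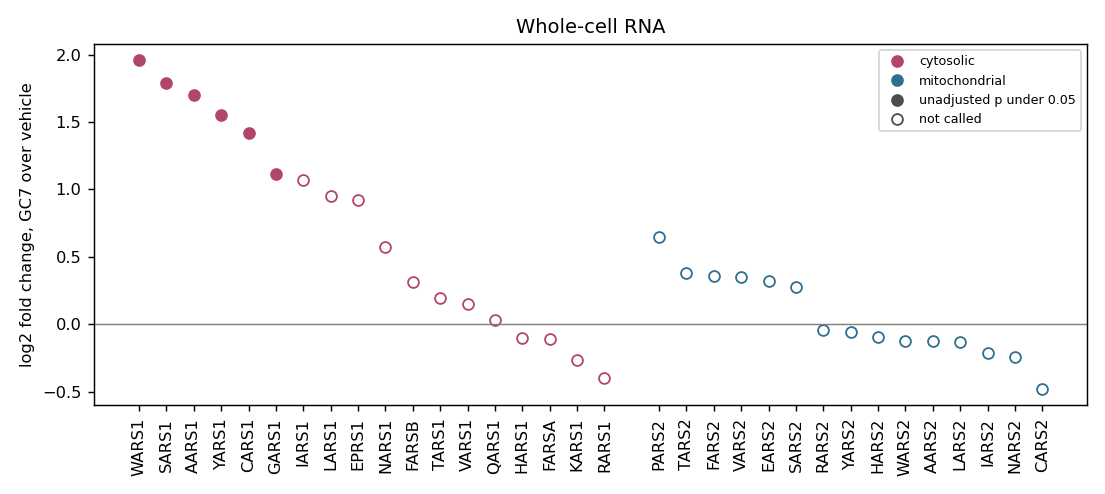
Log2 fold change of GC7 over vehicle in whole-cell RNA, taken with the opposite sign from the authors' deposited table, 1 point per gene in falling order within cytosolic and mitochondrial members; filled points have an unadjusted p under 0.05. The 6 filled points are cytosolic and lie between 1.12 and 1.96.

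Within the cytosol, members outside the multisynthetase complex and members inside it were set side by side. Outside the complex 7 of 12 were higher in polysomes (AARS1, CARS1, FARSB, GARS1, NARS1, SARS1 and WARS1), with a median log2 fold change of 0.62. Inside it 2 of 6 measured members were higher (IARS1 and LARS1), with a median of 0.43. Of all genes, 5.61% were called higher in polysomes. In whole cells the 6 members higher at an unadjusted p under 0.05 were among the 12 outside the complex. Of the 6 inside it 0 passed, where 2.78% of genes with reads were higher. With the sign reversed, whole-cell values ran from -0.40 to 1.07 inside and from -0.11 to 1.96 outside. IARS1 inside, at 1.07, did not pass this unadjusted threshold and GARS1 outside, at 1.12, did. MARS1 also belongs to the complex: with a row named Mar-01 read as MARS1, which the authors do not state, 3 of 7 inside were higher in polysomes and 1 of 7 in whole cells. By catalytic fold, 4 of 9 cytosolic class I enzymes and 5 of 9 class II enzymes were higher in polysomes. Differences between these groups of members were not tested. The scaffold AIMP1 rose by 0.67 (SE 0.18, adjusted p = 0.00403) and AIMP2 by 0.41 (SE 0.14, adjusted p = 0.0294) in polysomes, with the p-values of the authors' deposited table, and EEF1E1 stood at -0.07 (SE 0.14).

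For 12 amino acids a cytosolic and a mitochondrial enzyme whose names differ only in the final digit were both measured. The cytosolic mRNA had the higher polysomal log2 fold change in 8 of the 12 and the mitochondrial one in 4, with a median difference of 0.33. In cytoplasm the cytosolic mRNA was the higher one in 5 of the 12 and the mitochondrial one in 7, and in whole cells in 8 and 4. Outside these 12, FARSA at 0.25 and FARSB at 0.59 stood beside mitochondrial FARS2 at 0.20 in polysomes, and EPRS1 at 0.56 beside EARS2 at -0.12. The gap among the 12 was widest for cysteine, with CARS1 at 0.64 and CARS2 at -0.50, then for serine, with SARS1 at 1.11 and SARS2 at 0.01, and for tryptophan, with WARS1 at 1.27 and WARS2 at 0.23. For histidine, isoleucine, arginine, threonine and valine the cytosolic minus the mitochondrial value lay between -0.13 and 0.07. HARS1 and HARS2 lie head to head on chromosome 5 with 84 bases between their RefSeq starts, and neither was called in any of the 3 comparisons.

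**Figure D4:**
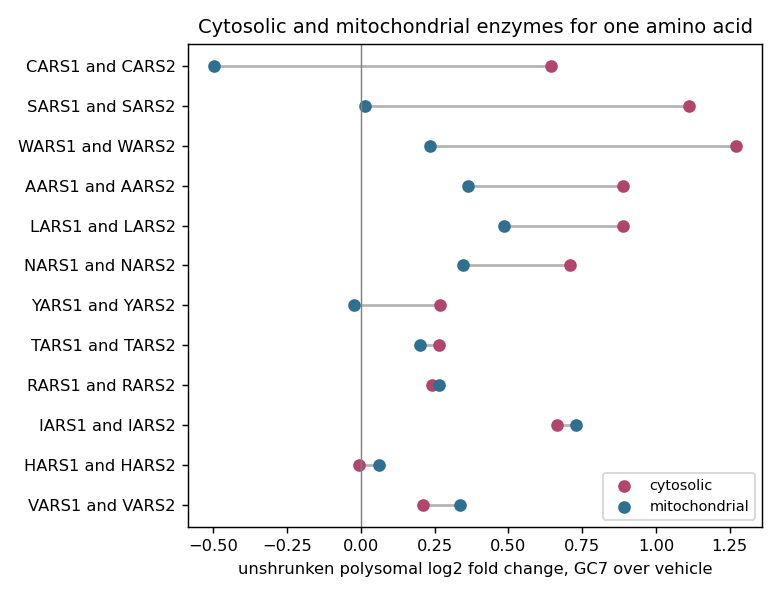
Unshrunken polysomal log2 fold change of GC7 over vehicle for the 12 amino acids whose cytosolic and mitochondrial enzymes share a name but for the final digit, 1 row per amino acid, joined by a line. The widest gap is that of CARS1 at 0.64 and CARS2 at -0.50, and IARS1 and IARS2 stand together at 0.66 and 0.73.

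Of the members with a TTGCATCA match shown above, AARS1, CARS1, IARS1 and NARS1 rose in polysomes and TARS1 was not called, at 0.27 (SE 0.20) in polysomes and -0.02 (SE 0.34) in cytoplasm. Among measured cytosolic members with a window, 4 of 8 that rose in polysomes and 1 of 7 that were not called held the letters. WARS1 and SARS1, the members with the largest polysomal changes, held neither TTGCATCA nor TTNCATCA in their windows. GARS1, which rose, held the second form 33 bases before a RefSeq start at 30594878, which lies downstream of its first RefSeq start at 30594735.

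Runs of proline codons were counted because eIF5A acts on them. At least 3 proline codons in a row stood in the coding sequences of 5 of the 35 members, FARSA, KARS1, MARS1, VARS1 and VARS2, and in 23.5% of 19913 coding sequences of GENCODE 44. VARS1 held 5 such runs. The run at codon 342 of VARS1 and the one at codon 144 of VARS2 are shown because they lie in like sequence in both compartments' valyl enzymes, with 23 of 27 bases identical and the proline codons in capitals.
VARS1: atgtgcatcCCACCCCCCaatgtgaca
VARS2: atgtgtatcCCACCTCCCaatgtcact

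VARS1 stood at 0.21 (SE 0.17) in polysomes and -0.24 (SE 0.24) in cytoplasm, and VARS2 at 0.34 (SE 0.15) and 0.16 (SE 0.15). Neither was called in a fraction, nor were KARS1 and FARSA. MARS1 had no row under its name, and the row Mar-01 was called higher in polysomes, at 0.94 (SE 0.18). Heavy polysome RNA does not measure where on an mRNA ribosomes stand, and protein was not measured.

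Per kilobase of the canonical GENCODE transcript, cytosolic synthetase mRNAs had higher medians than mitochondrial ones, with some overlap, taking GC7 and vehicle libraries together. In cytoplasm the mean normalized count per kilobase ran from 452 for FARSB to 5507 for KARS1, with a median of 1315, in cytosolic members, and from 46.7 for PARS2 to 626 for CARS2, with a median of 218, in mitochondrial members. The median of all genes with such a transcript was 152. In polysomes the medians were 1358 for cytosolic members, 325 for mitochondrial members and 224 for all genes. In polysomes 4 cytosolic members, FARSB at 391, RARS1 at 579, EPRS1 at 593 and LARS1 at 727, lay inside the mitochondrial range, which reached 754 for SARS2. FARSB was the one cytosolic member inside the mitochondrial range in cytoplasm, and its canonical transcript, at 6761 bases, is the longest of the list.

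**Figure D5:**
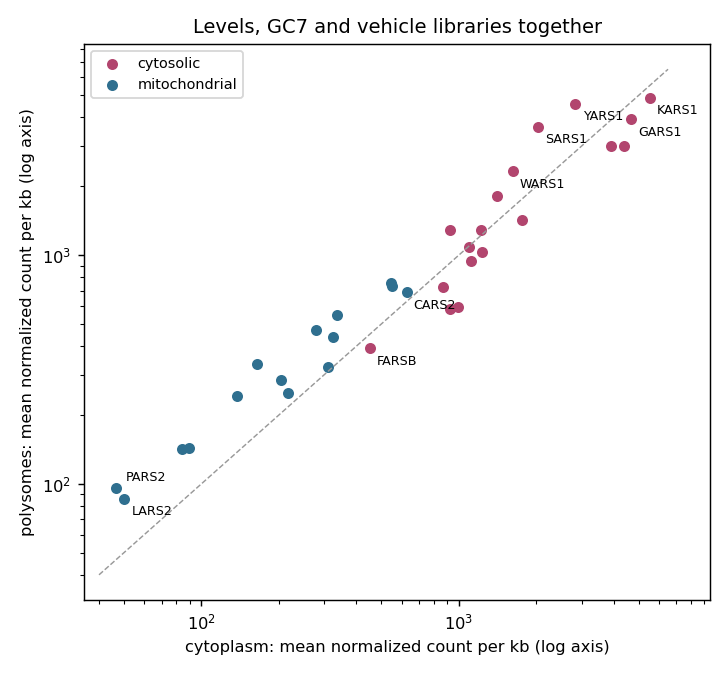
Mean normalized count per kilobase of transcript in polysomes against cytoplasm, both on log axes, 1 point per gene, over GC7 and vehicle libraries together. The dashed line marks equal values. Whether the fractions were normalized together or separately is not given in the sources used here. Cytosolic members lie between 452 and 5507 in cytoplasm and mitochondrial members between 46.7 and 626.

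Proteins that work with the synthetases were read from a list of 22 genes. In polysomes 6 of 22 rose (5.61% of all genes) and 0 fell (5.48% of all genes), and in cytoplasm 0 were called (2.29% of all genes higher and 1.95% lower). Beside AIMP1 and AIMP2 these included SEPSECS, which makes selenocysteine on its tRNA, at 0.97 (SE 0.24), QRSL1, a subunit of the amidotransferase that completes mitochondrial glutaminyl-tRNA, at 0.57 (SE 0.14), and PUS1, a tRNA pseudouridine synthase, at 0.40 (SE 0.12). Their adjusted p-values in the authors' deposited table were 0.00126, 0.00221 and 0.0178. XPOT, the nuclear export receptor of tRNA, was not called at 0.46 (SE 0.18), nor DTD1, a D-aminoacyl-tRNA deacylase, at 0.32 (SE 0.16), and TARS3, a second cytosolic threonyl enzyme, at -0.41 (SE 0.18). The other subunits of the amidotransferase, GATB at 0.16 (SE 0.21) and GATC at -0.30 (SE 0.16), were not called.

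Of 12 genes of the integrated stress response, kinases of eIF2 and ATF4 and its targets among them, 7 were called higher in both fractions, where 1.79% of all genes were. TRIB3, a pseudokinase, stood at 1.73 (SE 0.15) in polysomes and 1.74 (SE 0.18) in cytoplasm, and DDIT3, a transcription factor, at 1.93 (SE 0.18) and 1.90 (SE 0.19). ASNS, asparagine synthetase, stood at 1.66 (SE 0.24) in polysomes and 1.01 (SE 0.15) in cytoplasm. The other 4 were ATF3, CHAC1, SESN2 and PSAT1, from 0.92 to 1.10 in polysomes and from 0.83 to 1.19 in cytoplasm. Adjusted p-values of the 7 in the authors' deposited table were 2.19e-05 or smaller in polysomes and 0.000932 or smaller in cytoplasm. ATF4 mRNA itself fell by 0.44 in polysomes (SE 0.14), with an adjusted p of 0.02 in the authors' deposited table. In cytoplasm ATF4 stood at -0.45 (SE 0.27) without a call. Its polysomal minus cytoplasmic difference was 0.02 (SE 0.30), so no change of loading beyond the mRNA was seen for it. In whole cells 5 of the 12 were higher at an unadjusted p under 0.05 (2.78% of genes with reads). ATF4 stood at 0.86 there without a call. EIF2AK4, which encodes GCN2, was not called, at -0.18 (SE 0.13) in polysomes and -0.63 (SE 0.23) in cytoplasm, nor was its activator GCN1. The polysomal log2 fold changes of WARS1 and SARS1 lay above those of CHAC1, SESN2, ATF3 and PSAT1 and below those of ASNS, TRIB3 and DDIT3. The other members with a row under their own name lay below all 7. This order was not tested, and some gaps were small beside the SEs, as for SARS1 at 1.11 (SE 0.15) and CHAC1 at 1.10 (SE 0.13). The row Mar-01, at 0.94, lay above PSAT1, at 0.92.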

How the data were processed

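RNA of 18 DU145 libraries in 6 groups was compared by the authors. STAR 2.7.8a and Salmon 1.4.0, with GRCh38, are named per the submitters' processing notes; the statistical tool is not given in the sources used here. Per the file headers, the deposited table of whole cells holds log fold changes, read as log2, and p-values, and the deposited fraction table gives mean normalized counts (over both groups of a fraction), log2 fold changes with SE, p-values and adjusted p-values, and a category. Deposited fraction fold changes are shrunken: a Cauchy prior (scale 0.195 for cytoplasm, 0.205 for polysomes, natural log) was fitted to the deposited p-values and removed. The recovered z lay within 0.1 of the deposited one for 97.4% of genes in cytoplasm and 99.5% in polysomes; the difference test omitted 78 genes where it was more than 0.5 away. Members were matched by symbol. The members and lists were chosen with earlier results of these data known. The planned tests on counts could not be run on comparison tables. All members were named; of the accessory list, genes called in polysomes and 4 more by smallest polysomal p; of the stress list, genes called in both fractions; AIMP1, AIMP2, EEF1E1, GATB, GATC, ATF4, EIF2AK4 and GCN1 were added by role. Some genes that these rules or the marker lists name are not reported here. The tests were tried on simulated data. Python 3.11.15 and scipy 1.17.1 were used.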

Additional observations from a re-analysis of the deposited data

How the results depend on the processing

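No paired analysis was possible because the tables hold no values of single libraries, and for the same reason no replicate could be left out, no other count test or size factors were run, and the depth of each library is unknown. A Benjamini-Yekutieli adjustment left 1 member higher in cytoplasm (WARS1), against 4, and 0 lower in polysomes, against 1; LARS1, SARS1 and AARS1 in cytoplasm and NARS1 and CARS2 in polysomes lost their calls. A log2 fold change over 1 in the shrunken values of the authors' deposited table, as a further condition, left 0 members higher in cytoplasm. After removal of the shrinkage, WARS1 at 1.02 and SARS1 at 1.09 were above 1 there. In polysomes the condition on shrunken values left 2 that were higher and 0 that were lower. In whole cells Benjamini-Hochberg adjustment left 0 of 6. Reading the rows Mar-01 and Mar-02 as MARS1 and MARS2, an alternative chosen after seeing the data, moved the whole-cell median of cytosolic members to 0.92. With a correlation of errors of 0.5, the difference between fractions had 4 members at an unadjusted p under 0.05 (FARSB, RARS1, VARS1 and EARS2), with the smallest adjusted p of a member at 0.397, and 20 of all genes passed adjustment, against 0 with independent errors. Other alternatives kept every count of called members within 1.5 times and every median on its side of 0.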

Other observations

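Both tables hold rows named as dates, Mar-01 and Mar-02. In the fraction table, which is in alphabetical order, they stand between MARK4 and MARVELD1, where MARS1 and MARS2 would stand, and genes of the other families that spreadsheets turn into such dates (MARCHF2, MTARC1 and MTARC2) have rows of their own. MARCHF1 has a row of its own in the whole-cell table and none in the fraction table. Reading the rows as MARS1 and MARS2 is not stated by the authors. The row Mar-01 had an unshrunken log2 fold change of 0.94 (SE 0.18) in polysomes, with an adjusted p of 1.6e-05 in the authors' deposited table, of 0.35 (SE 0.44) in cytoplasm and, in whole cells with the sign reversed, of 1.69, where the authors' deposited table has an unadjusted p of 0.0201. The row Mar-02 stood at 0.15 (SE 0.19) in polysomes and 0.89 (SE 0.57) in cytoplasm and was not called.

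GARS1-DT, a long noncoding RNA gene that overlaps GARS1 on the opposite strand (chromosome 7, 30516309 to 30595286, against 30580533 to 30634033 for GARS1, GENCODE 44), stood at 0.79 (SE 0.23) in cytoplasm, where GARS1 was not called, with an adjusted p of 0.0186 in the authors' deposited table. WARS2-AS1 stood at 0.71 (SE 0.17) in polysomes, where WARS2 was not called, with an adjusted p of 0.00107 in the authors' deposited table. Whether counting used strand is not given in the sources used here, so reads of these genes and their partners cannot be told apart. They were chosen after their values were seen.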
